A study of Mus musculus with 6 samples.

Results

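The EGF receptor family was examined in the livers of mice that had undergone vertical sleeve gastrectomy (VSG, the surgical removal of a large part of the stomach) or a sham operation. The 10 genes were 3 receptors (Egfr, Erbb2 and Erbb3), 5 ligands (Egf, Tgfa, Hbegf, Btc and Areg) and 2 inhibitors of receptor activity (Errfi1 and Lrig1). They were selected on values of this same contrast among the 55385 genes of the deposited count table, so their fold changes and adjusted p-values are given here as a description of where they lay in the fit of all genes and not as an independent test. All but Areg, 9 of the 10, passed the filter on low counts, out of 14454 genes that passed it.

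The samples were livers of 6 male mice. Per the labels, the animals were 6 to 8 weeks old at the start, had a high-fat diet (HFD) for 10 weeks before the operation and stayed on it for another 12 weeks after VSG (3 mice) or sham operation (3 mice). The study's methods describe its mice as wild-type C57BL/6. All animals were on HFD and none was left without an operation, so the comparison is of 2 operations on 1 diet, with 1 library of poly(A) RNA from each liver. Total counts ran from 22804397 to 24191778 per library, with 3 counts corresponding to 0.111 to 0.143 CPM (counts scaled to library size with TMM factors). Group values are mean ± SD (n = 3).

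Receptors of this family sit in the cell membrane, pair up when a ligand binds, and phosphorylate each other. Erbb2 binds no known ligand and Erbb3 has little kinase activity of its own, so both depend on a partner. The signal runs through RAS and ERK, PI3K and AKT, and STAT factors, and is ended by receptor uptake, ubiquitination and inhibitors that the pathway itself induces. In liver, EGFR is abundant on hepatocytes and is known for its part in regeneration after resection.

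Egfr, Areg and Btc, and Erbb4 as a further receptor of the family, are placed here in the mouse genome (GRCm38, also called mm10, with GENCODE M21). Egfr spans chr11:16752203-16918158 on the plus strand, and its summed exons cover 11326 bases. Areg spans chr5:91139599-91148432 on the plus strand and Btc chr5:91357261-91402994 on the minus strand. Erbb4, the fourth receptor of the family, was not among the 10 genes and spans chr1:68032186-69108059 on the minus strand. For these 4 genes the 250 bases before the RefSeq start (GRCm38.p6) are shown 5′ to 3′ on the gene's own strand, so that the promoter letters can be set beside the counts. Capitals mark matches, on either strand, to the GC box (GGGCGG), the CCAAT box (CCAAT), the TATA box (TATAAA), the cAMP response element (TGACGTCA), the AP-1 site (TGANTCA) and the STAT site (TTCNNNGAA).
Egfr, chr11:16751953-16752202, plus strand: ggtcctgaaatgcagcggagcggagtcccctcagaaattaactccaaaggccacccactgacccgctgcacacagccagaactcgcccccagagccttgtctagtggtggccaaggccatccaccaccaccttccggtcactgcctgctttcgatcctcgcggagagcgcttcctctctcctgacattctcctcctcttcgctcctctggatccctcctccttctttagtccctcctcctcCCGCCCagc
Areg, chr5:91139349-91139598, plus strand: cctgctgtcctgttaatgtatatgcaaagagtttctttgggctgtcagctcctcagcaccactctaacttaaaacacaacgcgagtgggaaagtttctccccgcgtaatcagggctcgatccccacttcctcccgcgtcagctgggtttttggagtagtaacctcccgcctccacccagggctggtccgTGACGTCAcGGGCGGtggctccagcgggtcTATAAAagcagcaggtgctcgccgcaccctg
Btc, chr5:91402995-91403244, minus strand: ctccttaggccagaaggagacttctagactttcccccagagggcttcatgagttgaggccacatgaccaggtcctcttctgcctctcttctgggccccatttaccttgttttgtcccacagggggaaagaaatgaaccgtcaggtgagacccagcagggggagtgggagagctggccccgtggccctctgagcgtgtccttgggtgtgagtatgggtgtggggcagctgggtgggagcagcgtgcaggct
Erbb4, chr1:69108060-69108309, minus strand: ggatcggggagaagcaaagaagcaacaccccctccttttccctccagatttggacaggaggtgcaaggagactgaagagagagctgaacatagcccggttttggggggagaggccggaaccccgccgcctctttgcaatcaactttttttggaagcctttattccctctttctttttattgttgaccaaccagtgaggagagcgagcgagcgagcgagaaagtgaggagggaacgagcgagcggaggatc

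A window of this kind was found for 8 of the 10 genes and not for Erbb3 or Hbegf. The Egfr window held 60.8% G and C, against a median of 52.4% over 32851 promoter windows of the same length, and a GC box 9 to 4 bases before the start. The Areg window held a cAMP response element 61 to 54 bases before the start, a GC box at 52 to 47 and a TATA box at 31 to 26. A window of Errfi1, not shown, also held a cAMP response element (51 to 44), a TATA box (28 to 23) and GC boxes. No match to the 6 motifs was present in the Btc and Erbb4 windows. Of all windows, 32.7% held a GC box, 33.8% a CCAAT box, 12.4% a TATA box, 1.55% a cAMP response element, 6.75% an AP-1 site and 7.02% a STAT site. A match is a run of letters and says nothing on binding of a factor.

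Among the 9 genes tested, Egfr and Lrig1 were higher and Btc was lower in VSG livers at an adjusted p under 0.05, and the other 6 did not pass. Over all 14454 genes tested, 14.7% were called, 6.79% higher and 7.87% lower, while DESeq2 called 22.7% and limma-voom 12.9%. Sham and VSG values were free of overlap for 5 of the 9 genes (Egfr, Erbb2, Erbb3, Btc and Lrig1), against 39.7% of all genes tested. The median log2 fold change of the 9 genes was 0.36, and that of all genes tested was 0.03. Nothing is read from these counts, since the genes were selected on the contrast itself. Higher genes made up 46.3% of all calls with TMM scaling and 24.3% with total counts, which moved the median log2 fold change of all genes to -0.11.

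**Figure D1:**
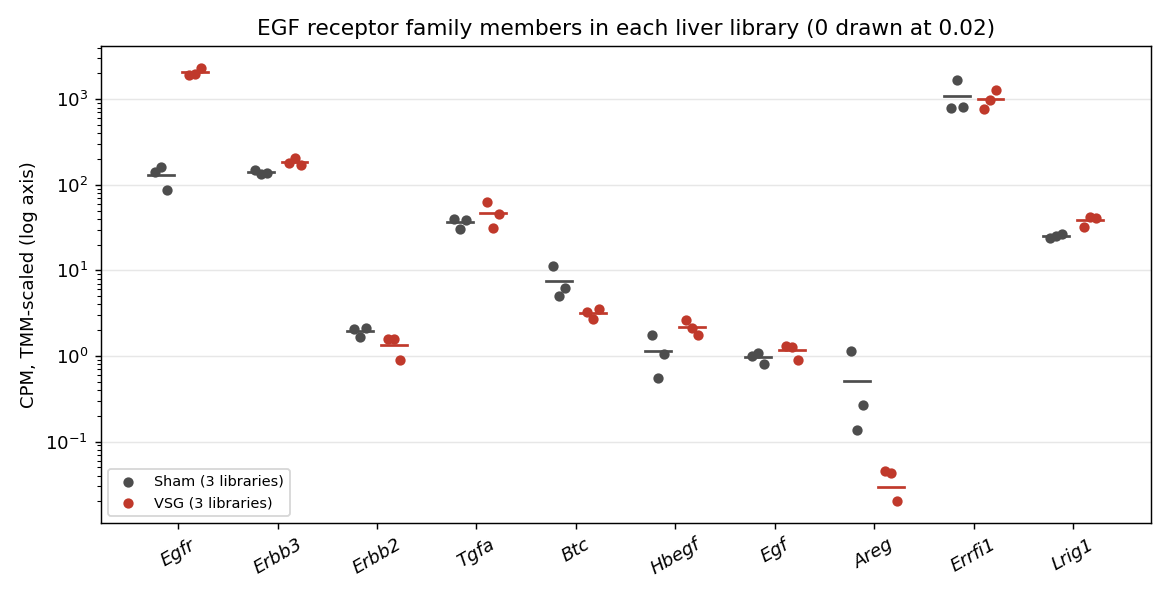
CPM of the 10 genes in each liver library on a log axis, with sham libraries in grey, VSG libraries in red and a line at each group mean (a library with 0 counts is drawn at 0.02). Egfr rose from 85.9 to 163 CPM in the sham libraries to between 1915 and 2339 CPM in the VSG libraries, Btc and Areg were lower in every VSG library, and Errfi1 overlapped between the groups.

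Egfr, the receptor for EGF, TGF-alpha and amphiregulin, stood apart in size. Its level was 139, 163 and 85.9 CPM in the sham libraries 1, 2 and 3, and 1915, 1956 and 2339 CPM in the VSG libraries 4, 5 and 6. The lowest VSG library was thus far above the highest sham library. The raw counts behind these levels were 2260 to 3776 in sham and 42324 to 49043 in VSG livers, so counting error was small beside the spread between animals. The group means were 129 ± 39.6 and 2070.1 ± 234 CPM, a 15.99-fold difference (log2 fold change 3.999, SE 0.295, adjusted p = 0.00197 by edgeR). Among genes tested, Egfr had the 77th highest log2 fold change and the 25th lowest p-value. Ordered by FPKM, which divides by gene length as well as library size, it moved from 2817th among tested genes in sham livers to 192nd in VSG livers. Across 13 alternative tests, scalings, filters and subsets of libraries, its log2 fold change ran from 3.77 to 4.20 and its adjusted p stayed at or below 0.0220. The counts were summed over each gene, so transcript variants of Egfr, such as those for truncated receptors, were not told apart, and protein was not analysed here.

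Erbb3, which relays signals from its partners to PI3K, was at 151, 133 and 139 CPM in sham and 180, 207 and 171 CPM in VSG livers. The groups did not overlap, with means of 141 ± 8.93 and 186 ± 18.9 CPM. The difference (log2 fold change 0.40, SE 0.120) was past the threshold in DESeq2 and not in edgeR, with adjusted p = 0.0674 in edgeR and 0.0165 in DESeq2. Erbb2, the partner receptor without a ligand, was near the low end of detection. Its level was 2.07, 1.64 and 2.13 CPM in sham and 1.58, 1.58 and 0.906 CPM in VSG livers, from 19 to 56 counts per library. All VSG values lay below all sham values, by a small margin, and the log2 fold change of -0.52 (SE 0.292) had an adjusted p of 0.252. Along 9 bases the exons of Erbb2 lie opposite an exon of Mien1, and whether the counting used strand was not stated.

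Erbb4, the fourth receptor and a receptor for neuregulins as well as betacellulin, went the other way from Egfr. It was at 6.06, 17.4 and 12.6 CPM in sham livers and at 1.27, 2.05 and 1.86 CPM in VSG livers. Every VSG library lay below every sham library, and the means of 12.0 ± 5.68 and 1.73 ± 0.409 CPM differed 6.96-fold (log2 fold change -2.79, SE 0.420, adjusted p = 0.0134). The call was lost without sham library 3 (adjusted p = 0.0656) and without VSG library 6 (adjusted p = 0.0667), while the log2 fold change over all alternatives ran from -3.12 to -2.43.

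Set side by side per length, Egfr made up most of the difference in the receptor sum. The summed FPKM of the 4 receptors was 36.2 ± 3.56 in sham and 214 ± 18.8 in VSG livers. Erbb3 held the larger share in all 3 sham livers, 65.5%, 57.9% and 71.9% of receptor FPKM, and Egfr held 32.2%, 37.6% and 23.6%. In VSG livers Egfr held 84.8%, 83.2% and 87.8%, and Erbb3 held 15.01%, 16.6% and 12.1%. By FPKM the order of the pair was therefore exchanged in every VSG liver. This rests on the length divisor, 11326 summed exon bases for Egfr and 6016 for Erbb3. In CPM, Egfr was already above Erbb3 in sham library 2 (163 and 133). It was below Erbb3 in sham library 1 (139 and 151) and sham library 3 (85.9 and 139). Erbb3 FPKM per Egfr FPKM was 2.21 ± 0.768 in sham and 0.171 ± 0.0314 in VSG livers. Erbb4 went from 2.71% ± 1.26 to 0.0651% ± 0.0143 of receptor FPKM and Erbb2 from 1.05% ± 0.224 to 0.124% ± 0.0436. These shares describe transcripts and carry the difference in Egfr that chose the gene, so they are not separate findings.

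**Figure D2:**
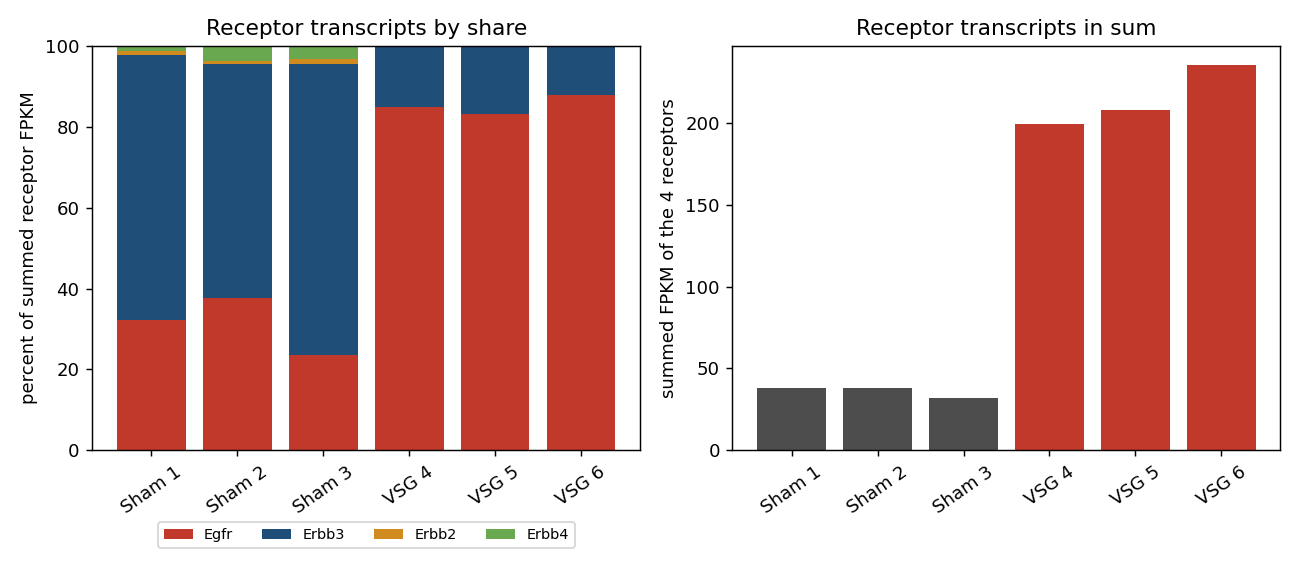
Left, percent of the summed FPKM of Egfr, Erbb3, Erbb2 and Erbb4 in each library. Right, their summed FPKM in each library, with sham in grey and VSG in red. Erbb3 was the larger share in the 3 sham livers and Egfr, at 83.2% to 87.8%, in the 3 VSG livers, where the sum was 199 to 235 FPKM against 32.1 to 38.3 in sham livers.

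Of the ligands, Btc was called lower, Areg was too low to be tested, and Tgfa, Hbegf and Egf did not pass. Btc encodes betacellulin, which binds EGFR and ERBB4. It was at 11.2, 5.03 and 6.15 CPM in sham and 3.26, 2.69 and 3.58 CPM in VSG livers, so the groups were apart, with sham library 1 well above the other sham libraries. The means were 7.46 ± 3.28 and 3.18 ± 0.448 CPM, 2.35-fold lower in VSG mice (log2 fold change -1.23, SE 0.325, adjusted p = 0.0491). The Btc call lay at the threshold and was lost under 8 of 13 alternatives, among them leaving out any of the 6 libraries (adjusted p = 0.0522 to 0.122). Without sham library 1 the log2 fold change was -0.82, and the direction was the same under all 13 alternatives.

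Areg encodes amphiregulin, a ligand of EGFR with lower affinity than EGF. It had 31, 3 and 7 counts in the sham libraries and 1, 1 and 0 counts in the VSG libraries, too few to be tested. The sham mean of 0.516 ± 0.548 CPM was at least 3.80-fold above the VSG floor of 0.136 CPM (3 counts in a library, averaged over the VSG group). Sham library 1 carried most of this, and without it the bound was 1.48-fold. With no filter on low counts Areg was called lower in edgeR (adjusted p = 0.0413), in a fit that called 2306 of 27530 genes. That call rests on the same few counts, most of them from sham library 1, and supports nothing by itself.

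Ereg, a gene for epiregulin on the same stretch of chromosome 5, followed the same direction. Its level was 1.29, 1.19 and 0.760 CPM in sham and 0.317, 0.428 and 0.429 CPM in VSG livers, from 7 to 35 counts per library. The groups did not overlap (log2 fold change -1.45, SE 0.336, adjusted p = 0.0354), and the call was lost when any of the 6 libraries was left out (adjusted p = 0.0518 to 0.104) and in limma-voom (adjusted p = 0.0505). With 7 to 10 counts in the VSG libraries, Ereg passed the low-count filter through the sham group, where it was high, so its call supports nothing by itself. Epgn, the gene for epigen, had 1 count in all 6 libraries together. The genes stand in the order Epgn, Ereg, Areg and Btc, with 39.4 kb between Epgn and Ereg and 46.0 kb between Ereg and Areg. The long non-coding RNA Gm19619 lies between the last 2, 109.1 kb beyond the end of Areg and 73.8 kb before Btc. Gm19619 was at 19.8, 7.77 and 12.9 CPM in sham and 5.97, 3.03 and 3.72 CPM in VSG mice (log2 fold change -1.67, SE 0.397, adjusted p = 0.0377). Ereg, Areg, Gm19619 and Btc were each lower in every VSG library than in every sham library, a separation that 39.7% of all genes tested had in either direction, and the highest value of each was that of sham library 1.

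Tgfa encodes TGF-alpha, a ligand that hepatocytes make themselves. It was at 40.1, 30.3 and 39.1 CPM in sham and 63.4, 31.1 and 46.1 CPM in VSG livers, with overlap between the groups (log2 fold change 0.36, SE 0.257, adjusted p = 0.354). Hbegf, the gene for heparin-binding EGF, was at 1.77, 0.548 and 1.06 CPM in sham and 2.62, 2.09 and 1.76 CPM in VSG livers. The groups touched at sham library 1 and VSG library 6 (log2 fold change 0.92, SE 0.424, adjusted p = 0.177). Egf was at 0.997, 1.10 and 0.798 CPM in sham and 1.31, 1.28 and 0.906 CPM in VSG livers, from 19 to 30 counts, with overlap (log2 fold change 0.28, SE 0.279, adjusted p = 0.505). For these 3 ligands no difference was detectable at this depth and number of animals.

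Per length, the 5 ligands summed to 8.01 ± 1.98 FPKM in sham and 8.50 ± 2.62 FPKM in VSG livers, with overlapping ranges. Tgfa made up 71.4% ± 8.61 of that sum in sham and 84.3% ± 3.63 in VSG livers, and Btc 20.04% ± 4.005 and 8.64% ± 1.92. Hbegf went from 2.77% ± 0.895 to 5.50% ± 1.55. Egfr FPKM per ligand FPKM was 1.22, 2.36 and 0.961 in sham and 15.1, 28.9 and 24.8 in VSG livers, which again carries the difference in Egfr.

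The inhibitors differed from each other. Errfi1 encodes MIG6, which binds the kinase domain of EGFR and is induced by EGFR signalling, and it had the highest mean FPKM of the 10 genes in both groups. Its level was 779, 1657 and 815 CPM in sham and 765, 979 and 1295 CPM in VSG livers, below Egfr in CPM in each VSG library. The groups overlapped widely, with sham library 2 highest and VSG library 4 lowest (log2 fold change -0.10, SE 0.354, adjusted p = 0.865). The sign turned without sham library 2 (0.34) and without VSG library 4 (0.07), so no direction was given. Egfr FPKM per Errfi1 FPKM was 0.0566, 0.0311 and 0.0333 in sham and 0.791, 0.632 and 0.571 in VSG livers.

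Lrig1 encodes a membrane protein that promotes the degradation of EGFR family receptors. It was at 23.6, 24.9 and 26.5 CPM in sham and 32.0, 41.9 and 41.0 CPM in VSG livers. Sham libraries lay close together and below all VSG libraries, with means of 25.0 ± 1.44 and 38.3 ± 5.44 CPM, a 1.53-fold difference (log2 fold change 0.61, SE 0.127, adjusted p = 0.0275). The call was lost under 6 of 13 alternatives. These were total counts as the scaling (log2 fold change 0.47, adjusted p = 0.0821) and leaving out any library but VSG library 4 (adjusted p = 0.0506 to 0.103). The direction was the same in all 13. Along 144 bases the exons of Lrig1 lie opposite an exon of Slc25a26, which had 797 counts in all libraries together.

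The order of the levels per length showed where Egfr moved among the 10 genes. In sham livers the order by mean FPKM was Errfi1 (303), Erbb3 (23.4), Egfr (11.4), Tgfa (5.62), Lrig1 (4.48), Btc (1.65), Areg (0.425), Erbb2 (0.374), Hbegf (0.233) and Egf (0.0855). The ranges of Tgfa and Lrig1, of Areg and Erbb2 and of Erbb2 and Hbegf overlapped, so these neighbours had no order beyond their spread. In VSG livers it was Errfi1 (283), Egfr (183), Erbb3 (30.9), Tgfa (7.22), Lrig1 (6.86), Btc (0.703), Hbegf (0.447), Erbb2 (0.261), Egf (0.104) and Areg (0.0241). Here only Tgfa and Lrig1 overlapped among neighbours.

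**Figure D3:**
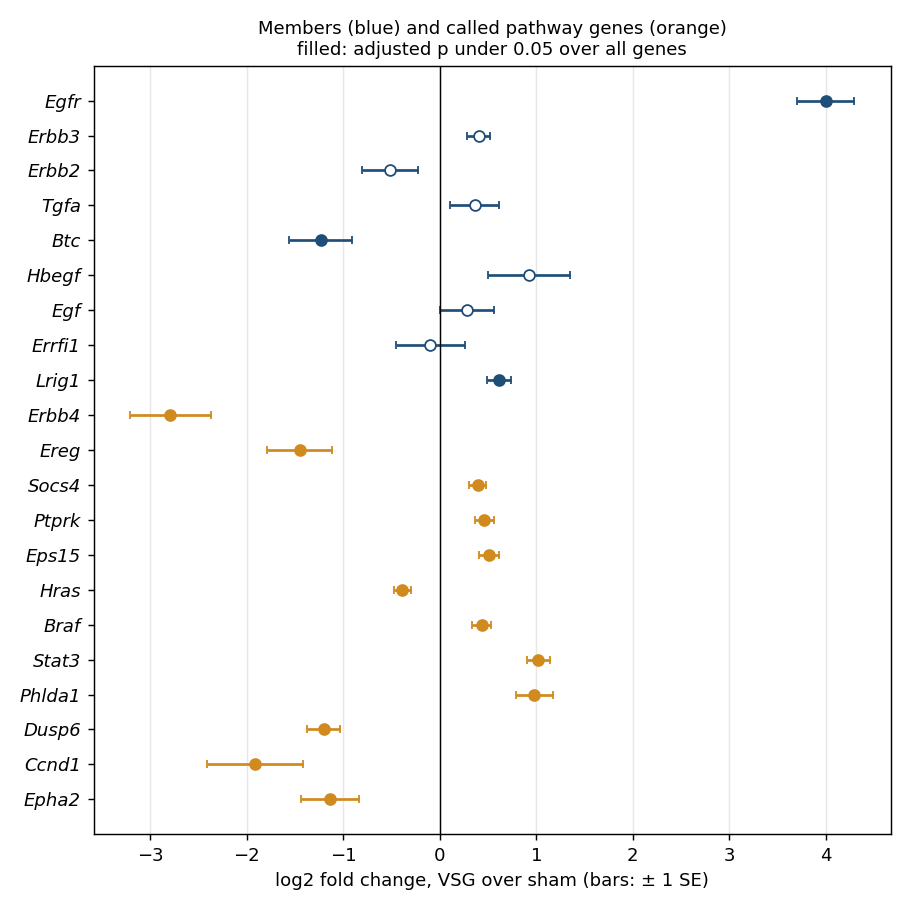
Log2 fold changes of VSG over sham (bars, 1 SE) for the 9 genes tested in blue and for the called genes of the other pathway lists in orange, filled where the adjusted p over all genes was under 0.05. Egfr at 3.999 lay farthest to the right and Erbb4 at -2.79 farthest to the left.

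Beyond the 10 genes, 62 genes of the pathway were listed by role, and 58 of them were tested. Of these 58, 5 were higher in VSG livers (Socs4, Ptprk, Eps15, Braf and Stat3) and 3 were lower (Erbb4, Hras and Ereg, the last kept by the filter through its sham counts), with a median log2 fold change of -0.01. These 8 of 58 lay near the 14.7% called among all genes. With total counts 1 was higher and 5 were lower, against 3.36% and 10.5% of all genes, and DESeq2 called 13, against 22.7% of all genes. The number called was 5 without sham library 1, 2 without sham library 2, 0 without sham library 3 (13 at an unadjusted p under 0.05), 3 without VSG library 4, 8 without VSG library 5 and 1 without VSG library 6. Over all genes the number called in these fits was, in the same order, 1214, 797, 159, 1076, 2732 and 210, against 2118 with all libraries.

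Stat3, a transcription factor activated by EGFR and by cytokine receptors such as that of IL-6, was called higher. It was at 130, 131 and 117 CPM in sham and 256, 231 and 283 CPM in VSG livers. The groups were well apart, at 126 ± 7.83 and 257 ± 26.0 CPM (log2 fold change 1.02, SE 0.124, adjusted p = 0.00809). The call was lost without sham library 3 (adjusted p = 0.0558). In the fit reported, Stat3 was the 1 gene called among 12 of the PI3K, AKT and other effector list, against 14.7% of all genes. DESeq2 called 2 of the 12, against 22.7% of all genes. With total counts 1 was higher and 2 were lower, against 3.36% and 10.5% of all genes.

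Of 11 genes for inhibition and degradation of the receptors, 2 were higher and none was lower, against 6.79% and 7.87% of all genes, with a median log2 fold change of 0.39. These were Socs4, an adaptor that directs EGFR to degradation (33.1 ± 2.52 and 43.5 ± 0.868 CPM, log2 fold change 0.39, adjusted p = 0.0343), and Ptprk, a receptor phosphatase that dephosphorylates EGFR (75.4 ± 5.91 and 104 ± 4.45 CPM, log2 fold change 0.46, adjusted p = 0.0305). The groups of 8 of the 11 did not overlap, against 39.7% of all genes tested, and DESeq2 called 5, against 22.7% of all genes. An unadjusted p under 0.05 was reached by 7 of the 11 in edgeR, against 33.9% of all genes. With total counts none of the 11 was called in edgeR, against 3.36% higher and 10.5% lower of all genes, and 1 had an unadjusted p under 0.05. Of 8 genes for endocytosis and sorting, Eps15, a coat adaptor of receptor uptake, was higher (63.0 ± 6.18 and 89.7 ± 3.69 CPM, log2 fold change 0.51, adjusted p = 0.0265). Of 16 adaptor and RAS-ERK genes, the kinase gene Braf was higher (37.1 ± 3.42 and 50.03 ± 2.88 CPM, log2 fold change 0.43, adjusted p = 0.0374) and the GTPase gene Hras was lower (23.3 ± 0.299 and 17.8 ± 0.881 CPM, log2 fold change -0.39, adjusted p = 0.0350). For the endocytosis and adaptor lists too, the shares over all genes were 6.79% higher and 7.87% lower. With total counts the calls of Socs4, Ptprk, Eps15 and Braf were lost, and their log2 fold changes were 0.25, 0.31, 0.36 and 0.29. Without the low-count filter Socs4, Ptprk, Braf and Hras lost their calls (adjusted p = 0.0900, 0.0675, 0.0754 and 0.0610). Braf lost its call when any of the 6 libraries was left out (adjusted p = 0.0569 to 0.143). Socs4 and Ptprk lost theirs without any library but sham library 1, Hras without any but VSG library 5, and Eps15 without any but sham library 1 and VSG library 5. The adjusted p-values of these 4 reached 0.145 for Socs4, 0.137 for Ptprk, 0.132 for Hras and 0.122 for Eps15, each without sham library 3.

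Of 8 genes for release of membrane-bound ligands, the ADAM sheddases and the rhomboid proteins that support them, 7 were tested. None passed in edgeR, DESeq2 or limma-voom, against 14.7%, 22.7% and 12.9% of all genes. An unadjusted p under 0.05 was reached by 0 in each, against 33.9% of all genes in edgeR. Without VSG library 5 it was reached by 4 of the 7, and without sham library 2 or VSG library 4 by 1, with none called. The log2 fold changes of the 7 genes ran from -0.56 (Adam12) to 0.79 (Rhbdf2). Of the neuregulins, which bind ERBB3 and ERBB4, Nrg1 was at 13.04, 2.19 and 6.95 CPM in sham and 3.76, 0.641 and 2.39 CPM in VSG livers, with overlap (log2 fold change -1.72, adjusted p = 0.166). Nrg4 was at 25.2 ± 8.23 and 20.4 ± 8.17 CPM (log2 fold change -0.30, adjusted p = 0.591), and Nrg2 and Nrg3 were too low to be tested.

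Of 10 genes widely used as readouts of ERK activity, 9 were tested. Their median log2 fold change was -0.70, against 0.03 over all genes, with 1 higher (6.79% of all genes) and 3 lower (7.87% of all genes). Dusp6, the phosphatase that inactivates ERK, was at 68.3, 73.9 and 79.2 CPM in sham and 25.8, 40.4 and 29.9 CPM in VSG livers, 2.30-fold lower (log2 fold change -1.20, SE 0.173, adjusted p = 0.0121). Epha2, an ephrin receptor, was at 41.4, 45.7 and 44.7 CPM in sham and 10.8, 23.8 and 25.4 CPM in VSG mice (log2 fold change -1.14, SE 0.299, adjusted p = 0.0491). Ccnd1, the gene for cyclin D1, was at 172, 48.1 and 84.8 CPM in sham and 22.9, 18.9 and 39.3 CPM in VSG mice (log2 fold change -1.91, SE 0.497, adjusted p = 0.0478). None of these 3 overlapped between the groups, though the sham values of Ccnd1 were spread widely. Along 1100 of its 4709 exon bases Ccnd1 lies opposite exons of LTO1, which had 1768 counts in all libraries together. Dusp6 lost its call without sham library 3 (adjusted p = 0.0655) and without VSG library 6 (adjusted p = 0.0649). Ccnd1 kept its call only without sham library 2, and Epha2 only without VSG library 4 or VSG library 5, with adjusted p-values up to 0.129 and 0.1505 in the other fits with 1 library left out. Ccnd1 also lost its call in limma-voom (adjusted p = 0.0554), and Epha2 with RLE size factors (adjusted p = 0.0512).

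Phlda1, a pleckstrin homology-like domain gene of the same list, was the one that was higher. It was at 24.0, 22.9 and 30.4 CPM in sham and 52.0, 61.8 and 38.7 CPM in VSG livers, without overlap (log2 fold change 0.98, SE 0.195, adjusted p = 0.0250). Along 727 of its 2205 exon bases Phlda1 lies opposite exons of Gm28592, which had 19 counts in all libraries together. The Phlda1 call was lost with total counts (log2 fold change 0.84, adjusted p = 0.0570) and without sham library 1, 2 or 3 or VSG library 4 (adjusted p = 0.0553 to 0.0785). Spry2, Spry4, Dusp4, Epha4 and Etv5 did not pass, and Etv4 was too low to be tested. The number called was 1 without sham library 1, 2 without sham library 2, 0 without sham library 3 (5 at an unadjusted p under 0.05), 2 without VSG library 4, 5 without VSG library 5 and 1 without VSG library 6. In the same fits and order, 1214, 797, 159, 1076, 2732 and 210 of all genes were called, against 2118 with all libraries.

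**Figure D4:**
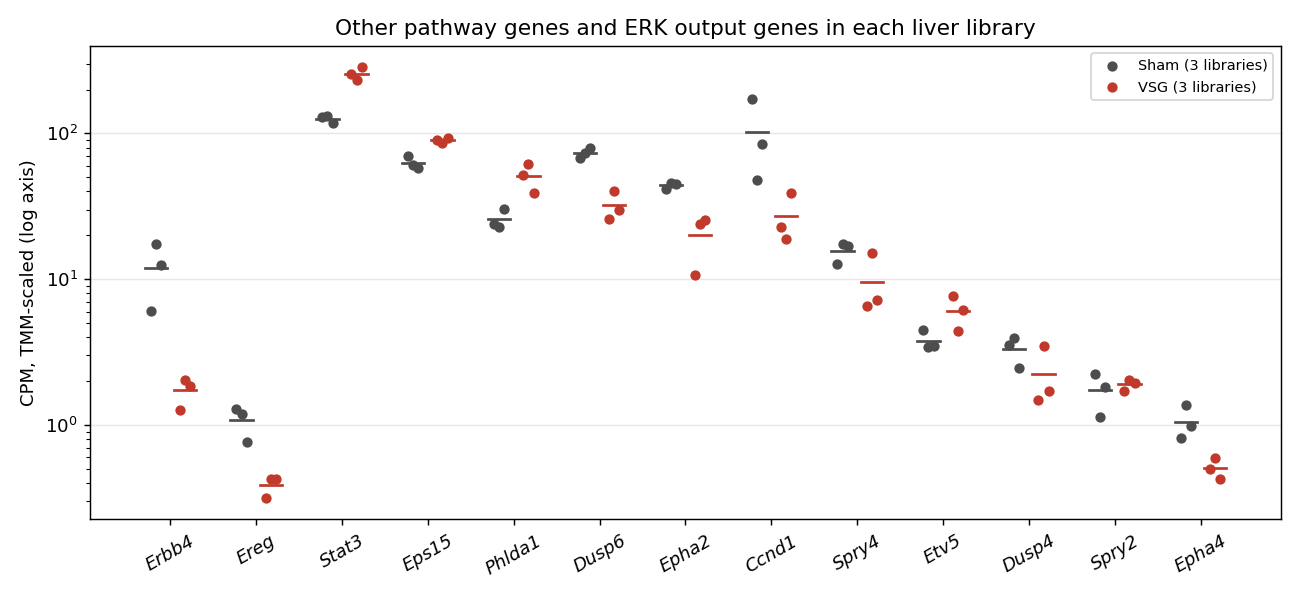
CPM of other pathway genes and ERK readout genes in each library on a log axis, with sham libraries in grey, VSG libraries in red and a line at each group mean. Erbb4, Ereg, Dusp6, Epha2 and Ccnd1 were lower in all 3 VSG libraries, and Stat3, Eps15 and Phlda1 were higher.

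By the level of their log2 CPM over the 6 libraries, 5 genes followed Egfr most closely among 8163 tested genes with a mean of at least 10 CPM. They were Srek1, Casd1, Zfp131, Gnl2 and Mug-ps1, with Pearson correlations of 0.999 to 0.996. The correlations rest on 6 points in 2 groups and share libraries and scaling, and 333 genes had a correlation over 0.95, so the order is a description. Their differences were far smaller than that of Egfr. Srek1 was at 37.8 ± 1.61 and 55.3 ± 0.437 CPM (log2 fold change 0.55), and Mug-ps1 at 85.0 ± 12.1 and 190 ± 2.78 CPM (log2 fold change 1.16).

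Transcripts that mark cell types were read in the same libraries, because fewer cells of a type and less RNA per cell cannot be told apart in bulk tissue. The 6 hepatocyte markers summed to 74753 to 113081 CPM in sham and 86791 to 114632 CPM in VSG livers, and none passed in edgeR (2 at an unadjusted p under 0.05, and DESeq2 called 2), while 1 was called higher without VSG library 5. For the marker counts, the shares over all genes were 6.79% higher and 7.87% lower in edgeR, 33.9% at an unadjusted p under 0.05, 22.7% called in DESeq2 and 12.9% in limma-voom. With 1 library left out, 159 to 2732 of all genes were called in edgeR, against 2118 with all libraries. None of 5 sinusoidal endothelial markers passed in edgeR, DESeq2 or limma-voom, with 0 at an unadjusted p under 0.05 in each. All 8 neutrophil markers were higher (3 in limma-voom, and 1 in edgeR without sham library 2, sham library 3 or VSG library 6), with sums of 2.56 to 14.1 CPM in sham and 146 to 1799 CPM in VSG livers. An unadjusted p under 0.05 was reached by 8 in each of those edgeR fits and by 6 in limma-voom. With at least 10 counts required in every library 2 of the 8 were tested and both were called, so the other 6 entered the test through the VSG group, where they were high. Of 5 Kupffer cell markers 3 were higher, with sums of 249 to 531 and 482 to 1143 CPM. That count was 1 without VSG library 4 and 0 in edgeR without sham library 2, sham library 3 or VSG library 6, with 3 at an unadjusted p under 0.05 in each. Of 5 stellate cell markers 1 was lower, with sums of 524 to 676 and 238 to 447 CPM. All 5 had an unadjusted p under 0.05, and DESeq2 called 4 lower. In edgeR the count was 0 without sham library 1, sham library 3 or VSG library 6 (2 at an unadjusted p under 0.05 in each), 2 without sham library 2 or VSG library 4 and 3 without VSG library 5. Of 5 bile duct markers 4 were tested and Sox9 alone was higher, a count that was 0 in limma-voom and in edgeR without sham library 1, 2 or 3 or VSG library 6 (1 to 4 at an unadjusted p under 0.05), while Krt7, Krt19 and Epcam did not pass, with log2 fold changes of -0.84, -0.76 and -1.20 and levels between 0.271 and 5.74 CPM. Of 4 B and plasma cell markers 3 were tested and Jchain was higher. The part of these cell types in the differences of the family was not tested.

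**Figure D5:**
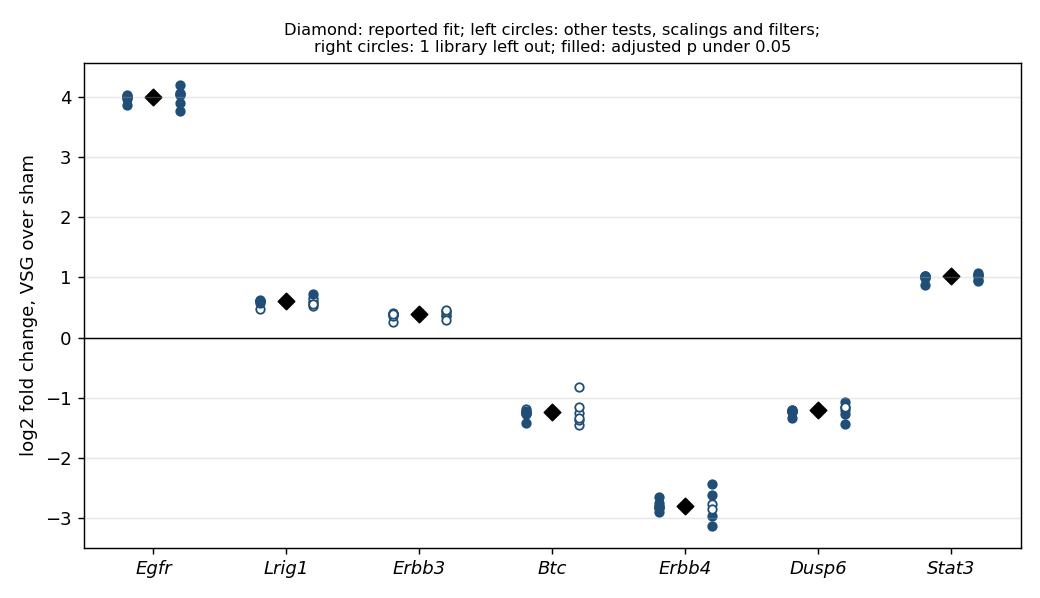
Log2 fold changes of 7 genes in the fit reported (diamond), under other tests, scalings and filters (left circles) and with 1 library left out (right circles), filled where the adjusted p was under 0.05. Egfr stayed between 3.77 and 4.20 and was filled throughout, while Btc and Lrig1 kept their side of 0 and lost the call in 8 and 6 of 13 alternatives.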

How the data were processed

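Poly(A) RNA of 6 mouse livers (3 sham, 3 VSG, grouped by their titles) had been sequenced from strand-specific libraries. Per the study's methods, the authors checked reads with FastQC, aligned them with STAR to mm10 and counted them with featureCounts, and the submitters' processing notes name FastQC 0.10.1 and STAR 2.6.0. For featureCounts the methods and the notes give different versions. The deposited values were raw counts per gene, unscaled, with each gene's summed exon length. The strand option and the handling of multi-mapped reads were not given in the sources used here. Symbols came from GENCODE M21, which matched 55144 of 55385 identifiers. Start and end were equal for the 54487 with the same version.

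Counts were tested with edgeR 4.0.16 (glmQLFit, glmQLFTest) in R 4.3.3, with group as the only term, after filterByExpr (minimum count 10, total 15) and TMM scaling (factors 0.897 to 1.15). Benjamini-Hochberg adjustment of the p-values was over the 14454 genes kept. SE is the log2 fold change divided by the square root of F. CPM and FPKM used TMM-scaled library sizes. Floors cover counting error only, since reads are not independent molecules. Replicates differed by more than counting noise (chi-square per degree of freedom 25.2 to 193), and each library was kept as 1 animal.

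The genes and lists were chosen with earlier results of these data known. All 10 genes, every called gene of the pathway lists, Gm19619 and the 5 genes most correlated with Egfr were named. Other genes named, Sox9 and Jchain among the markers included, were picked after their values were seen. Marker lists are given as counts. Alternatives were DESeq2 1.42.0, limma-voom 3.58.1, RLE factors, total counts, no filter, a minimum of 10 counts per library, a prior count set to 2, and each library left out in turn.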

Additional observations from a re-analysis of the deposited data

How the results depend on the processing

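Egfr kept its call under all 13 alternatives. The number of genes called was 2118 and became 3288 with DESeq2, and pathway genes called went from 8 to 13. Leaving out 1 library gave 159 (without sham library 3) to 2732 genes (without VSG library 5), with 210 without VSG library 6, 797 without sham library 2, 1076 without VSG library 4 and 1214 without sham library 1. In the same fits 0 to 8 pathway genes, 0 to 5 ERK readout genes and 1 to 2 of the 10 genes were called, against 8, 4 and 3 with all libraries. For Errfi1 the log2 fold change changed sign (-0.31 to 0.34). With total counts the median log2 fold change of all genes was -0.11, against 0.03, and 24.3% of calls were higher, against 46.3%. All 20 group means in FPKM moved by less than the replicate SD with that scaling. The causes of these changes were not tested. With 3 animals a group, genes under about 60 counts (Erbb2, Egf, Hbegf, Areg) were read with little precision. No paired analysis was possible because the replicate numbers are not shared between groups.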
